A study of Mus musculus with 8 samples.

Results

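The genes described here are the growth hormone receptor gene Ghr, insulin-like growth factor 1 (Igf1), its receptor Igf1r, and 7 genes for proteins that carry or resemble carriers of IGF, namely Igfals, Igfbp1, Igfbp2, Igfbp3, Igfbp4, Igfbp5 and Igfbp7. They were read from every probe set on the array whose single annotated mouse symbol was one of these names, which gave 28 of 45037 probe sets (control probe sets left out) and 10 of 18193 genes. All 8 arrays were Affymetrix murine 430 2.0 arrays of gallbladder RNA from female B6.V-lepob mice, an obese strain that makes no functional leptin, so saline and leptin mice both lacked their own hormone. Leptin mice received recombinant mouse leptin by daily intraperitoneal injection at 5 µg per g body weight for 4 weeks, and control mice received saline over the same period. The mice arrived at 7 weeks of age, had 1 week to settle, ate standard chow and were 12 weeks old, after an overnight fast, when the gallbladder was removed. Each array held RNA pooled from 3 gallbladders, so 12 mice per treatment gave 4 pools, numbered 1 to 4 for saline and 5 to 8 for leptin. No lean mice were among the samples analysed here, so every comparison is of leptin with saline in leptin-deficient animals.

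Growth hormone binds its receptor on liver and other cells, and the receptor signals through the kinase JAK2 to the transcription factors STAT5A and STAT5B. Their targets include Igf1, Igfals and the SOCS-family inhibitors Socs2 and Cish, which switch the signal off again. IGF1 acts on the receptor tyrosine kinase IGF1R, and in blood it travels in a complex with IGFBP3 or IGFBP5 and the acid-labile subunit, which Igfals encodes and liver secretes. The other IGF-binding proteins hold IGF1 in smaller complexes and limit or direct its access to the receptor, and IGFBP7 is a matrix-associated relative that binds IGF weakly.

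Of the 28 probe sets, 25 were bright enough to be tested, and every one of the 10 genes had at least 1 of these. A probe set was tested where its mean log2(signal + 8.2) over the 8 pools reached the median of all probe sets, equal to a signal of 83.3. Values are MAS 5.0 signals in arbitrary units. Leptin pools had higher signals of Igfals and of the brightest Igfbp7 probe set, and no tested probe set of the 10 genes was called lower (limma). At an unadjusted p under 0.05 (limma) there were 3 probe sets, all higher. No share of all tested probe sets was taken at that threshold, so this count is not read as a result. A call here is an adjusted p below 0.05 from limma over all 22519 tested probe sets. These 2 of 25 probe sets are 8% of the members tested, beside 3.54% of all tested probe sets called higher and 3.39% called lower. The treatments did not overlap for 3 of the 25, which were Igfals and both tested Igfbp7 probe sets, against 15.5% of all tested probe sets without overlap. Igfals and the dimmer of these Igfbp7 probe sets, 1423585_at, reached the brightness limit only through their leptin pools. The counts called and without overlap therefore depend in part on the filter, and no conclusion is drawn from them. The log2 fold change (leptin minus saline) was above 0 for 17 of the 25 and below 0 for 8, with a median of 0.17 beside 0.039 over all tested probe sets. These signs depend on the scaling, with 20 above and 5 below 0 under quantile or cyclic loess scaling and 7 above and 18 below when arrays are centred on their median. Several probe sets read the same transcript and they are not independent of each other.

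Libraries and tissue were checked first. Keratin transcripts of the gallbladder epithelium were present in every pool (Krt8 5531 to 10384), and so were hepatocyte transcripts (Alb 14896 to 21696), adipocyte, macrophage and smooth muscle transcripts, so the pools held RNA of several cell types. The summed signal of 18 hepatocyte markers was 147280 to 235787 in saline and 171883 to 214032 in leptin pools, with 1 marker called higher and 0 lower (two-sided exact permutation test over 70 assignments, p = 0.971, 0.971 after Benjamini-Hochberg adjustment over 9 marker lists). The sum of 15 macrophage markers was 6368 to 8106 in saline and 14115 to 18415 in leptin pools, with 14 called higher and 0 lower (exact permutation p = 0.0286, the smallest that 4 against 4 pools can give, adjusted 0.0858). The sum of 13 epithelial markers was 41164 to 51333 in saline and 36206 to 40385 in leptin pools, with 2 called higher and 3 lower (exact permutation p = 0.0286, adjusted 0.0858). Of 10 adipocyte markers 4 were called lower and 0 higher (7178 to 19893 in saline, 6093 to 8843 in leptin, exact permutation p = 0.0857, adjusted 0.154). The ratio of the 3′ to the 5′ actin control probe sets, a measure of RNA integrity and labelling, was 1.5 to 1.68 in saline and 1.67 to 2.17 in leptin pools. Only leptin pool 7 (1.67) lay inside the saline range, so the ratio and the treatment are largely confounded. A call gained or lost with this ratio as a covariate can therefore not be credited to either. In bulk RNA of this kind, fewer cells of a type and less RNA per cell cannot be told apart.

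The promoters of the 2 genes called are shown, Igfals because it is a textbook target of the growth hormone signal and Igfbp7 for comparison. All 10 genes had promoter entries in RefSeq (build GRCm38.p6), 14 in all, each 300 bases from 250 before to 50 after an annotated start. They were searched on both strands for TTCNNNGAA, the letters of the palindromic element to which STAT proteins bind, and a palindrome reads the same on either strand. It occurred in 2 of the 14 windows, both of Igfals, and in 8.3% of all 32851 promoter windows of the same length (2726 of them). The 250 bases before each start are printed 5′ to 3′ on the strand of the gene, with a match in capitals. The first Igfals sequence is chr17:24877594-24877843 on the plus strand, with its match beginning 236 bases before the start, and the next is chr17:24877981-24878230, with its match beginning 58 bases before the start. The Igfbp7 sequence is chr5:77408046-77408295 on the minus strand and has no match.
Igfals, upstream start: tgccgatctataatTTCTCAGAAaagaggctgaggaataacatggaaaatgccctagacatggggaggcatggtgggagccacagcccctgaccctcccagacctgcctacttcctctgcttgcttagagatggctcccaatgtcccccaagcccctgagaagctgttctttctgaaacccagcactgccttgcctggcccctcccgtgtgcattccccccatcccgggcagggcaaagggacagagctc
Igfals, middle start: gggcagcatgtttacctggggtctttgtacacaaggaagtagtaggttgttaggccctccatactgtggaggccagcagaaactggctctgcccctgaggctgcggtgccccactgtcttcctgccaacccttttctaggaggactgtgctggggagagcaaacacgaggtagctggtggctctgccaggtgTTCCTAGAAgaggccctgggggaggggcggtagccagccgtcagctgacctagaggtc
Igfbp7: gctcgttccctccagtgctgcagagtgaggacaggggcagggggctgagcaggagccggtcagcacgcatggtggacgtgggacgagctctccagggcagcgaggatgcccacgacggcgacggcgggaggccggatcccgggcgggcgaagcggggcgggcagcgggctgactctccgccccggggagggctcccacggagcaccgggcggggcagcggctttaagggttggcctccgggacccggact
The third annotated start of Igfals had no match in its window. A match describes letters, and no binding was measured in these samples.

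Ghr, the receptor at the head of the pathway, was read by 3 probe sets, all tested and none called. The brightest, 1417962_s_at, read 1935, 2497, 2757 and 1762 in saline pools 1 to 4 and 2627, 1973, 1563 and 2095 in leptin pools 5 to 8. Leptin pool 7 lay below the saline range and the other leptin pools inside it. The means were 2238 ± 467 (SD, n = 4) in saline and 2064 ± 439 in leptin, a log2 fold change of -0.12 ± 0.17 (SE, limma adjusted p = 0.723) or 0.922-fold with a 95% interval of 0.714 to 1.19. The second probe set, 1451501_a_at, read 1335, 1690, 1894 and 1317 in saline and 1623, 1220, 1076 and 1531 in leptin, and followed the same order of pools within each treatment (-0.20 ± 0.16, adjusted p = 0.489). The third, 1451871_a_at, read 367, 464, 452 and 227 in saline and 433, 358, 437 and 440 in leptin, with its mean the other way round (0.19 ± 0.20, adjusted p = 0.617). The 3 probe sets of the receptor therefore gave fold changes of both signs, all within the spread between pools. With the actin ratio as a covariate, 1417962_s_at was called lower (log2 fold change -0.66, limma adjusted p = 0.0406). That ratio is largely confounded with treatment, so this fit cannot tell them apart.

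Igf1, the hormone that liver and many connective tissue cells make in response to growth hormone, was read by 4 probe sets, all tested and none called. The brightest, 1434413_at, read 1395, 1546, 1768 and 1446 in saline and 1807, 1683, 1652 and 1803 in leptin. Saline pool 3 alone overlapped with the leptin pools. Its mean was 1539 ± 165 in saline and 1736 ± 80.4 in leptin (SD, n = 4), a log2 fold change of 0.18 ± 0.11 (limma adjusted p = 0.34), and its 95% interval ran from 0.964-fold to 1.33-fold. The probe set 1419519_at read 461, 578, 661 and 506 in saline and 671, 682, 745 and 593 in leptin, again with 1 saline pool above the lowest leptin pool (0.29 ± 0.14, unadjusted p = 0.0558, limma adjusted p = 0.227). The signals of 1437401_at were 1186, 1378, 1338 and 1134 in saline and 1606, 1413, 1169 and 1362 in leptin (0.13 ± 0.12, adjusted p = 0.54). Those of 1452014_a_at were 908, 1687, 1998 and 1319 in saline and 1910, 1602, 1632 and 1915 in leptin (0.31 ± 0.20, adjusted p = 0.37). The 4 fold changes ranged from 0.13 to 0.31 on the log2 scale, amounts that did not pass the test, and 2 of the 4 (1434413_at and 1437401_at) fell below 0 with median centring. The value of 1452014_a_at was 0.096 without saline pool 1 and 0.47 without saline pool 3.

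Igf1r, the tyrosine kinase that binds IGF1, was read by 5 probe sets, of which 3 were tested and none was called. The brightest, 1452982_at, read 385, 361, 418 and 395 in saline and 537, 376, 459 and 440 in leptin. Leptin pool 6 fell inside the saline range and the other leptin pools lay above it (390 ± 23.8 against 453 ± 66.2, SD, n = 4; log2 fold change 0.20 ± 0.14, limma adjusted p = 0.405). The probe set 1426565_at read 208, 202, 184 and 184 in saline and 190, 265, 204 and 232 in leptin (0.18 ± 0.16, adjusted p = 0.532). The signals of 1428967_at were 165, 130, 90.8 and 102 in saline and 98.3, 164, 138 and 143 in leptin (0.16 ± 0.24, adjusted p = 0.733). Both overlapped between treatments. The other two probe sets were too dim to test, 1446303_at at 17.1 to 67.5 in saline and 33.2 to 64 in leptin, and 1452108_at at 31 to 76.2 and 50.9 to 113.

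**Figure D1:**
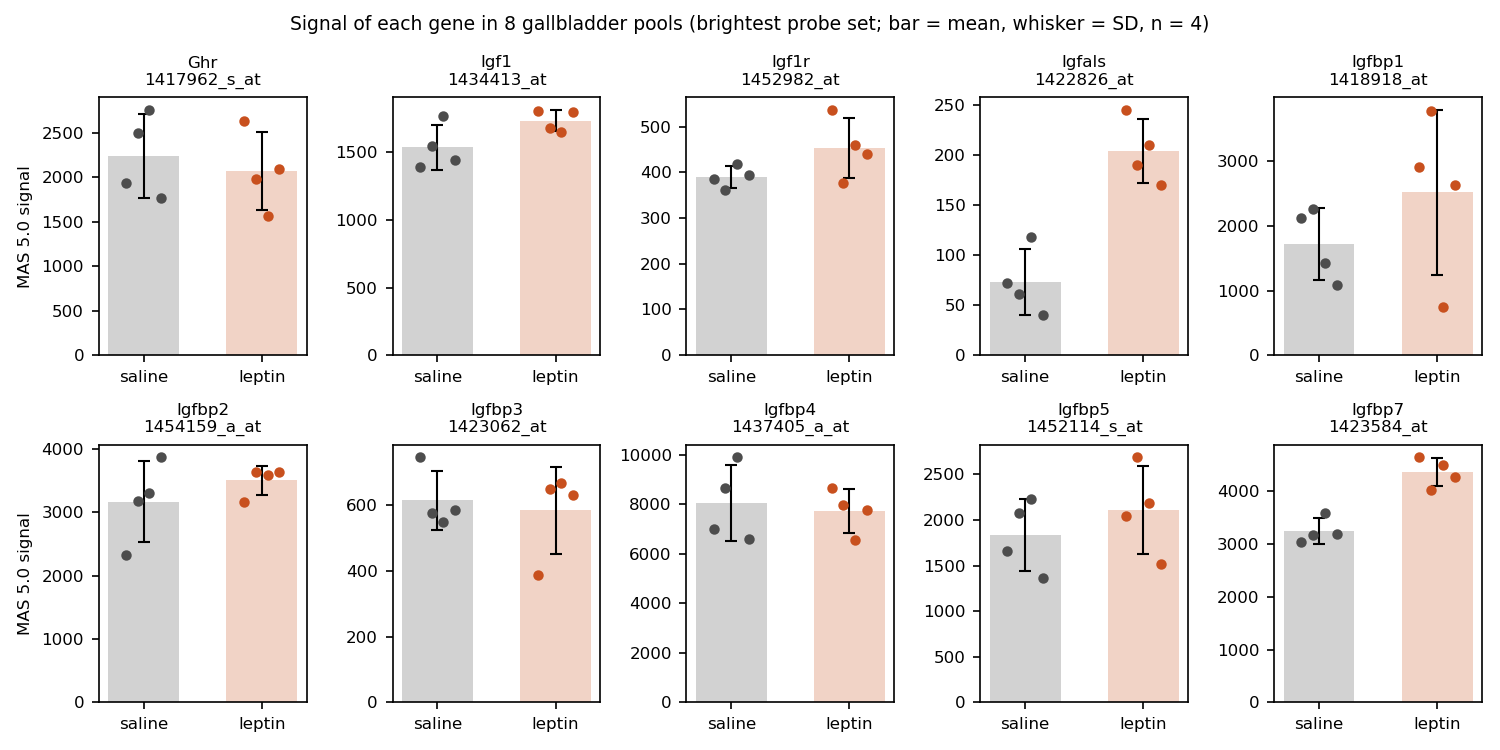
MAS 5.0 signal (arbitrary units) of the brightest probe set of each of the 10 genes in the 4 saline (grey) and 4 leptin (orange) pools; points are pools in pool order, bars are means and whiskers are SD (n = 4). The leptin and saline points are separate for Igfals (170 and above against 118 and below) and Igfbp7 (4030 and above against 3592 and below), and overlap for the other 8 genes.

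Igfals, the acid-labile subunit that lengthens the life of IGF1 in blood, had the largest fold change of the 25 tested probe sets. Its only probe set, 1422826_at, read 72, 60.7, 118 and 40.2 in saline pools 1 to 4 and 245, 190, 210 and 170 in leptin pools 5 to 8. Every leptin pool was above every saline pool. The means were 72.7 ± 32.9 in saline and 204 ± 32.1 in leptin (SD, n = 4), a log2 fold change of 1.46 ± 0.28 (SE, limma adjusted p = 0.0083) or 2.76-fold with a 95% interval of 1.82 to 4.19. These are dim signals. Saline pool 4 lay below 46.0, the 95th percentile of 27 bacterial control probe sets taken as background, and the saline mean lay below the brightness limit of 83.3, so the probe set was tested only through its leptin pools. With no brightness filter the limma adjusted p was 0.0204, and with the actin ratio as a covariate the call was lost (1.14, adjusted p = 0.162).

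The hepatocyte and macrophage markers stood beside Igfals as follows. The 18 hepatocyte markers, markers of the cell that secretes the acid-labile subunit, overlapped between treatments in their sum and none of them was below background in all pools. The sum of the 15 macrophage markers did not overlap, nor did 14 of them singly (Cd163 did overlap), and their part in the Igfals result was not tested. The 5 genes with pool profiles most like that of Igfals, by the smallest root mean square difference of centred log2 values over the 8 pools among 11718 other genes, were Ms4a7 (0.21), Csf2rb2 (0.24), Dleu2 (0.24), Pla2g7 (0.25) and Nrros (0.28). Ms4a7 is a membrane protein of macrophages, Csf2rb2 a cytokine receptor subunit of myeloid cells, Pla2g7 a phospholipase that macrophages secrete and Nrros a protein of myeloid cells. Dleu2 is not assigned to a cell type here, and none of the 5 was on the macrophage marker list. Their log2 fold changes ran from 1.11 (Pla2g7) to 1.60 (Ms4a7), a range that their choice by likeness to Igfals fixes, and no test was made of what they share.

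Igfbp1, a liver protein induced by fasting and glucocorticoids and repressed by insulin, had a wider spread among its leptin pools than the difference between its treatment means. The probe set 1418918_at read 2117, 2261, 1420 and 1083 in saline and 2911, 3782, 749 and 2638 in leptin. Leptin pool 7 was the lowest of all 8 pools while the other leptin pools were above every saline pool. The means were 1720 ± 562 and 2520 ± 1277 (SD, n = 4), a log2 fold change of 0.39 ± 0.40 (limma adjusted p = 0.598), with a 95% interval from 0.718-fold to 2.39-fold. Without leptin pool 7 the log2 fold change was 0.90 and was called (limma adjusted p = 0.0353), so this one pool decides the call.

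Igfbp2, the binding protein next most abundant in blood after IGFBP3, was read by 1454159_a_at at 2317, 3177, 3302 and 3870 in saline and 3165, 3625, 3580 and 3626 in leptin. The leptin pools lay inside the saline range (3167 ± 642 against 3499 ± 224, SD, n = 4; log2 fold change 0.17 ± 0.14, limma adjusted p = 0.503; 0.912-fold to 1.38-fold). Igfbp3, the main carrier of IGF1 in blood and the partner of the acid-labile subunit, was read by 1423062_at at 745, 576, 547 and 585 in saline and 388, 648, 666 and 628 in leptin. Its means were 613 ± 89.5 and 582 ± 131 (SD, n = 4; -0.095 ± 0.18, limma adjusted p = 0.789; 0.718-fold to 1.22-fold). The second Igfbp3 probe set, 1458268_s_at, read 549, 430, 334 and 428 in saline and 376, 486, 501 and 325 in leptin (-0.046 ± 0.18, adjusted p = 0.909). So the partner of Igfals in the circulating complex had overlapping signals at both of its probe sets. In the RefSeq gene table Igfbp1 and Igfbp3 are next to each other on chromosome 11, and Igfbp2 and Igfbp5 on chromosome 1, with no coding gene between them, and none of these 4 genes was called.

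Igfbp4, which mostly inhibits IGF action and is cut by the protease PAPPA, was read by 6 probe sets, all tested and none called. The brightest, 1437405_a_at, read 6980, 8666, 9909 and 6597 in saline and 8661, 7957, 6540 and 7747 in leptin. All 4 saline pools were above the lowest leptin pool, pool 7 (8038 ± 1537 against 7727 ± 882, SD, n = 4; log2 fold change -0.045 ± 0.13, limma adjusted p = 0.876; 0.793-fold to 1.18-fold). The probe set 1437406_x_at read 6277, 8052, 8827 and 6038 in saline and 8140, 7206, 6039 and 7376 in leptin (-0.011 ± 0.13, adjusted p = 0.972). Signals of 1423756_s_at were 6078, 7412, 8523 and 6596 in saline and 8291, 7242, 5965 and 7340 in leptin (0.013 ± 0.13, adjusted p = 0.963). Leptin pool 7 was again the lowest of the leptin pools in both. The signals of 1423757_x_at were 3102, 3877, 4600 and 3539 in saline and 4819, 3638, 2982 and 4148 in leptin (0.037 ± 0.15, adjusted p = 0.912). Those of 1421992_a_at were 2067, 2391, 2998 and 1832 in saline and 2849, 2136, 1410 and 2502 in leptin (-0.084 ± 0.20, adjusted p = 0.84). The sixth, 1421991_a_at, read 527, 566, 546 and 353 in saline and 551, 485, 246 and 546 in leptin (-0.16 ± 0.24, adjusted p = 0.723). Across the 6 probe sets the log2 fold change ran from -0.16 to 0.037, and leptin pool 7 had the lowest leptin signal at every one of them.

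Igfbp5, a binding protein of connective tissue and smooth muscle that can also join the ternary complex, was read by 2 probe sets. The brighter, 1452114_s_at, read 1663, 2078, 2234 and 1359 in saline and 2045, 2691, 2190 and 1514 in leptin, with overlapping treatments (1833 ± 398 against 2110 ± 484, SD, n = 4; log2 fold change 0.20 ± 0.18, limma adjusted p = 0.548; 0.872-fold to 1.51-fold). The dimmer, 1422313_a_at, read 239, 224, 289 and 299 in saline and 225, 384, 629 and 249 in leptin (0.38 ± 0.27, adjusted p = 0.421). Its leptin mean of 372 ± 185 included pool 7 at 629, while leptin pools 5 and 8 lay inside the saline range. Without leptin pool 7 the log2 fold change was 0.09 (limma adjusted p = 0.834), and with the actin ratio as a covariate it was 1.08 (0.0832).

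Igfbp7, a secreted protein of vessel walls and matrix, was the other gene called. Its brightest probe set, 1423584_at, read 3038, 3162, 3592 and 3180 in saline pools 1 to 4 and 4647, 4030, 4488 and 4265 in leptin pools 5 to 8. Every leptin pool was above every saline pool, with means of 3243 ± 241 and 4357 ± 269 (SD, n = 4). The log2 fold change was 0.43 ± 0.094 (SE, limma adjusted p = 0.0183), or 1.34-fold with a 95% interval of 1.17 to 1.55. The dimmer probe set 1423585_at read 73.2, 70.2, 92.2 and 55.6 in saline and 130, 135, 146 and 118 in leptin, without overlap (72.8 ± 15 against 132 ± 11.7, SD, n = 4). Its log2 fold change was 0.81 ± 0.23 with a limma adjusted p of 0.0535, above the threshold. It too was tested only through its leptin pools, because its saline mean lay below 83.3, and with no brightness filter the limma adjusted p was 0.125. This probe set was called with no mean-variance trend (0.81, limma adjusted p = 0.0215) and with array weights (0.77, 0.0449), and in no other alternative fit. The third, 1437804_at, was too dim to test and read 46.1 to 101 in saline and 26.7 to 111 in leptin.

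The Igfbp7 call was the less stable of the pair. It was lost without saline pool 2 (log2 fold change 0.41, limma adjusted p = 0.0576), without leptin pool 5 (0.39, 0.0534), with no mean-variance trend (0.43, 0.0748), with the actin ratio as a covariate (0.33, 0.21) and when each array was centred on the median of all probe sets (0.18, 0.275). Median centring moved the median log2 fold change of the tested probe sets from 0.039 to -0.21 and every member by the same amount. Relative to the median of the tested probe sets Igfbp7 stood at 0.39 as reported, 0.58 with quantile and 0.57 with cyclic loess scaling, and Igfals at 1.42, 1.29 and 1.27. The sum of 13 endothelial markers, from cells known to make IGFBP7, was 3238 to 3922 in saline and 3761 to 5011 in leptin pools (1 called higher, 0 lower; exact permutation p = 0.0571, adjusted 0.128). The sum of 14 fibroblast markers was 22329 to 27312 and 26158 to 33634 (1 called higher, 0 lower; exact permutation p = 0.114, adjusted 0.171). None of these markers was below background in all pools, and the part of these cells in the Igfbp7 result was not tested. The 5 genes most like Igfbp7 over the 8 pools were Mtfp1 (root mean square difference 0.067), C330007P06Rik (0.073), Zbtb20 (0.074), Hsf2 (0.078) and Prkd3 (0.081).

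**Figure D2:**
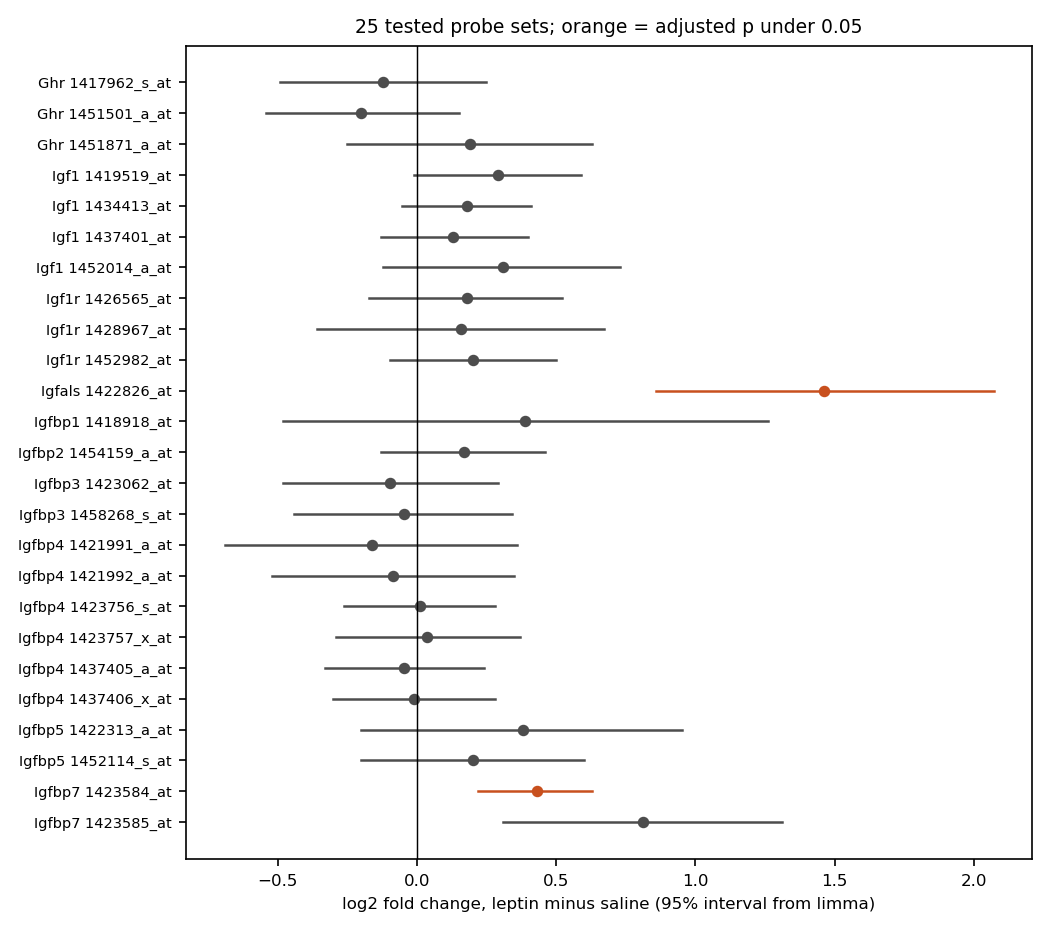
Log2 fold change (leptin minus saline) of the 25 tested probe sets with 95% intervals from limma; orange marks an adjusted p under 0.05 and the vertical line is 0. Igfals (1.46) and Igfbp7 1423584_at (0.43) are called, and the interval of Igfbp7 1423585_at (0.81) also lies above 0 although its adjusted p is 0.0535.

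**Figure D3:**
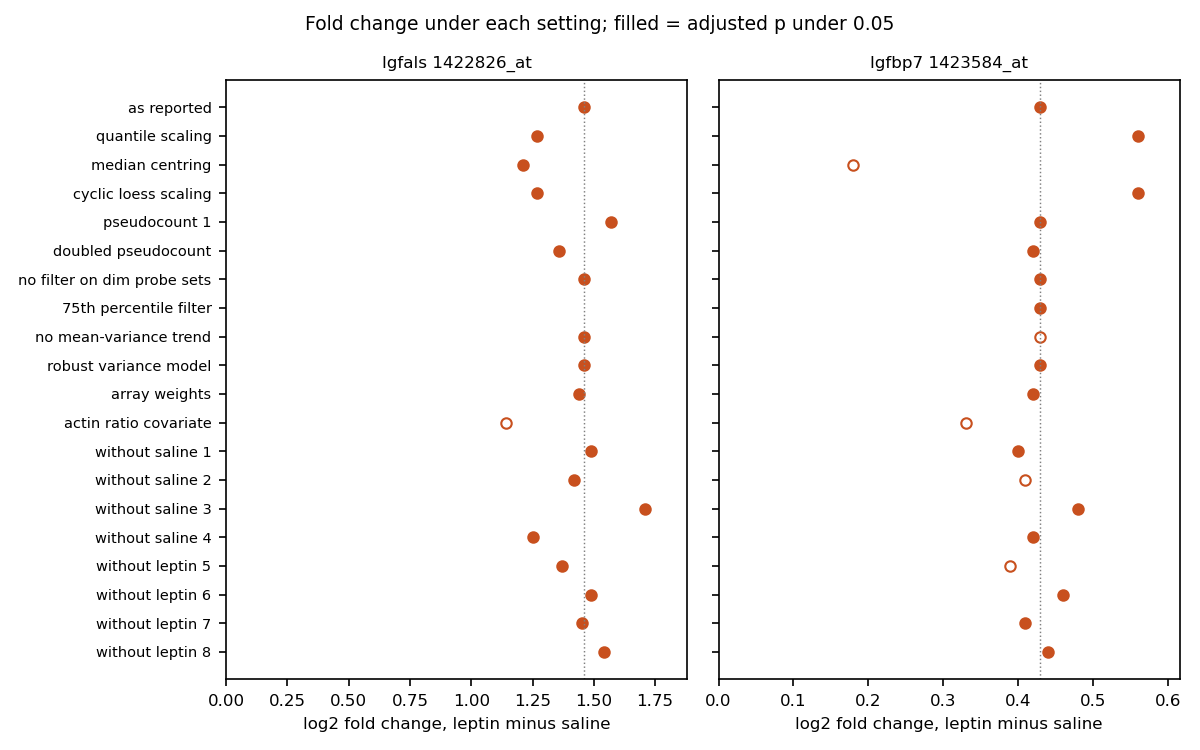
Log2 fold change of Igfals and of Igfbp7 1423584_at under the reported setting and each alternative; filled points have an adjusted p under 0.05, open points do not, and the dotted line is the reported value. Igfals ranges from 1.14 to 1.71 with 1 open point (actin ratio) and has no point under the 75th percentile filter, which left it out; Igfbp7 ranges from 0.18 to 0.56 with 5 open points.

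The other genes of the pathway were read from their brightest probe set, and 4.29% of the 11719 genes tested were called higher and 3.98% lower. Of 13 tested genes of growth hormone receptor signalling, 2 were called higher and 0 lower, with a median log2 fold change of 0.065 beside 0.02 over all genes. Both were inhibitors of the pathway that growth hormone itself induces. The part of growth hormone, or of any cell type, in these 2 calls was not tested. Cish read 250, 171, 249 and 273 in saline and 425, 465, 308 and 410 in leptin, without overlap (log2 fold change 0.75 ± 0.18, limma adjusted p = 0.0259). Socs2 read 127, 147, 164 and 156 in saline and 363, 326, 199 and 243 in leptin, also without overlap (0.86 ± 0.20, limma adjusted p = 0.0222). These calls were not stable, since Cish lost its call under 6 of 19 alternatives. They were the actin ratio as a covariate (log2 fold change 0.65, limma adjusted p = 0.228), median centring (0.50, 0.0937) and 4 single left-out pools (saline 2, leptin 5, 6 or 8; adjusted p up to 0.0801). Socs2 lost its call under 8 of 18 alternatives. They were the actin ratio as a covariate (0.40, limma adjusted p = 0.438), quantile scaling (0.72, 0.0695), median centring (0.61, 0.0599), cyclic loess scaling (0.75, 0.0522) and 4 single left-out pools (saline 1 or 2, leptin 5 or 6; adjusted p up to 0.071). The kinase Jak2 (0.27 ± 0.15, adjusted p = 0.311) and the transcription factors Stat5a (0.094 ± 0.20, 0.817) and Stat5b (0.37 ± 0.14, 0.132) were not called.

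Of 16 tested genes of IGF receptor signalling, 0 were called in either direction by limma (median 0.073). The list held the insulin receptor Insr beside the insulin receptor substrates, the PI3 kinase, AKT and their partners. At an unadjusted p under 0.05 (limma), 3 were higher (Insr, Irs1 and Tsc1) and 0 lower. No share of all genes was taken at that threshold, so the unadjusted counts of the lists are not read as results. Irs1, which docks the kinase to the receptor, had the largest value of the 16 (0.53 ± 0.20, adjusted p = 0.126). Among the other IGF genes 3 were tested and none was called (limma; 1 lower and 0 higher at an unadjusted p under 0.05). They were the fetal growth factor Igf2 (407 ± 52.3 against 291 ± 54.5, SD, n = 4; -0.48 ± 0.17, limma adjusted p = 0.102), its clearance receptor Igf2r (-0.013 ± 0.12, 0.964) and Igfbp6 (-0.043 ± 0.18, 0.916). Of 22 proteases that cut IGF-binding proteins and their inhibitors, 1 was called higher, the metalloproteinase inhibitor Timp2 (0.46 ± 0.12, adjusted p = 0.0374), and 2 lower (list median -0.035). The latter were the epithelial metalloproteinase Mmp7 (7940 ± 1388 against 5151 ± 217, SD, n = 4; -0.61 ± 0.11, limma adjusted p = 0.0072) and the inhibitor Timp3 (-0.70 ± 0.16, adjusted p = 0.0226). Pappa, the protease of IGFBP4, was dim (120 ± 37.9 in saline and 120 ± 34.4 in leptin, SD, n = 4). Its means differed little, with a large SE (log2 fold change 0.024 ± 0.29, limma adjusted p = 0.972). Timp2 lost its call under 11 of 19 alternatives and Timp3 under 9 of 19, which included 7 single left-out pools (each except saline 3) and 5 (saline 3 or 4, leptin 5, 6 or 8). Over the alternatives their highest limma adjusted p was 0.263 for Timp2 and 0.229 for Timp3, whereas Mmp7 lost its call under 1, the actin covariate.

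The CCN proteins share an amino-terminal fold with the IGF-binding proteins. Of 4 tested, 2 were called lower and 0 higher, with a median of -0.56. Ccn2, a matrix protein of the connective tissue response, read 4764, 4313, 4923 and 4246 in saline and 1866, 2178, 3366 and 1546 in leptin (-1.08 ± 0.19, limma adjusted p = 0.00452). Ccn1, its immediate-early relative, read 1761, 1581, 1468 and 1310 in saline and 710, 849, 976 and 1037 in leptin (-0.78 ± 0.14, limma adjusted p = 0.00588). Neither overlapped between treatments, and both calls were lost under 1 of 19 alternatives, the actin covariate. Set beside them, the classical binding proteins Igfbp1 to Igfbp5 had no called probe set.

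Liver genes that respond to the pattern of growth hormone release were the last list, with 12 tested, 1 called higher and 2 lower (median -0.041). At an unadjusted p under 0.05 (limma), 3 were higher and 4 lower, again without a share over all genes. The direction in which each gene responds was not set beforehand, so these counts and the median do not measure a growth hormone response. The major urinary protein gene Mup3 read 936, 2338, 2241 and 1266 in saline and 5853, 3903, 3935 and 6383 in leptin (1.63 ± 0.27, limma adjusted p = 0.00327). Cyp2d9, a steroid hydroxylase of mouse liver, read 925, 2021, 2068 and 1399 in saline and 773, 594, 524 and 791 in leptin (-1.20 ± 0.23, limma adjusted p = 0.0088). Cyp2b10, a drug-metabolizing enzyme, read 489, 884, 776 and 643 in saline and 355, 386, 194 and 502 in leptin, where saline pool 1 overlapped with leptin pool 8 (-0.98 ± 0.25, limma adjusted p = 0.0364). Leptin pools were thus higher for one liver gene of this list and lower for 2 others, while the hepatocyte marker sum overlapped. The Mup3 probe set may also read other genes of its close-knit family. Cyp2d9 kept its call under all 19 alternatives. Mup3 kept it under 18 of 19 and lost it with the actin ratio as a covariate (0.93, limma adjusted p = 0.127), and Cyp2b10 lost it under 8 of 19, which included 5 single left-out pools (saline 2, 3 or 4, leptin 5 or 6; adjusted p up to 0.104).

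**Figure D4:**
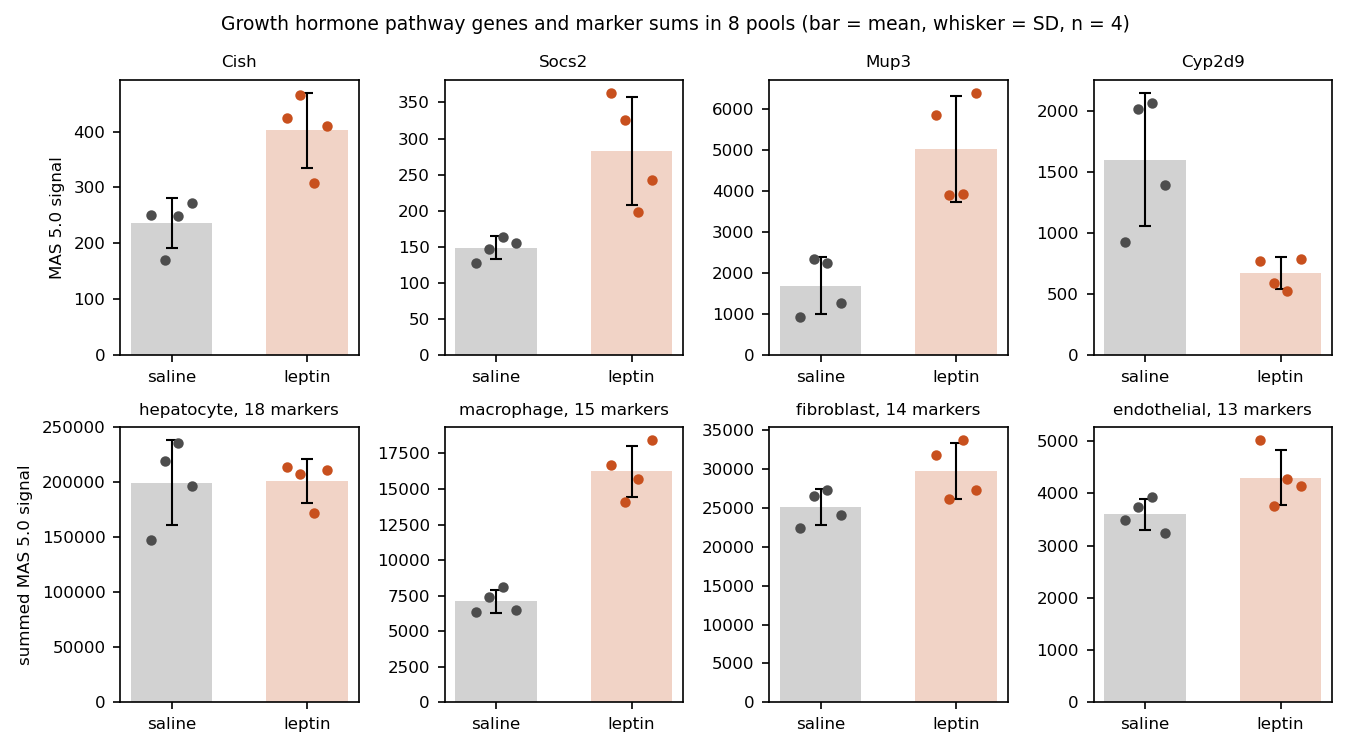
Upper row, MAS 5.0 signal (arbitrary units) of Cish, Socs2, Mup3 and Cyp2d9; lower row, summed signal of the hepatocyte, macrophage, fibroblast and endothelial markers; points are the 4 saline (grey) and 4 leptin (orange) pools, bars means and whiskers SD (n = 4). Leptin points lie above all saline points for Cish, Socs2, Mup3 and the macrophage sum and below them for Cyp2d9, and the hepatocyte, fibroblast and endothelial sums overlap.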

How the data were processed

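Values are the authors' deposited signal intensities, 1 per probe set and array; per the labels they came from MAS 5.0 or the Gene Chip Operating Software. No detection call, scan date or software version was used here. Each array was rescaled to a 2% trimmed mean of 250, and log2(signal + 8.2) was tested with limma 3.58.1 in R 4.3.3 (lmFit and eBayes, the variance prior following the mean, two-sided). The pseudocount, the 10th percentile of all values, makes fold changes of dim probe sets too small. The 64 control probe sets and those with a mean log2 value under the median were left out. The p-values were adjusted by Benjamini-Hochberg over 22519 probe sets. Symbols were updated through Entrez identifiers (34754 of 34958 probe sets with 1 symbol matched, 932 had several symbols and 9211 none). A gene was read from its brightest probe set. The fit was tested on simulated data. Pools are of different mice and no 2 arrays held the same values. The number of arrays limits the precision.

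The members and gene lists were chosen with earlier results of these data known. The text names all 10 genes with each probe set, every called gene of the pathway lists (up to 6 per list), and the 5 genes most like each called member; the other genes were chosen after their values were seen. The 9 marker lists also held smooth muscle (49538 to 67002 in saline, 47709 to 60489 in leptin; exact permutation p = 0.171, adjusted 0.22), exocrine pancreas (3237 to 5048 and 3065 to 4154; p = 0.343, adjusted 0.386) and B and plasma cell genes (840 to 1036 and 3848 to 7768; p = 0.0286, adjusted 0.0858), all by the exact permutation test.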

Additional observations from a re-analysis of the deposited data

Results flagged for a closer look

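In each treatment the gap between the highest or lowest pool and its nearest neighbour was divided by the range of the 4 pools on the log2 scale, for all 28 probe sets. Of 56 such groups, 5 exceeded Dixon's 95% critical value for 4 samples, and chance alone exceeds it in about 1 of 20.

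Leptin pool 6 stood low for Ghr 1451871_a_at (ratio 0.915; signal 358 against 433 to 440 in the other leptin pools). Leptin pool 5 stood low for Igfbp2 (ratio 0.906; 3165 against 3580 to 3626) and for Igfbp3 1423062_at (ratio 0.892; 388 against 628 to 666). Igfbp4 1421991_a_at had a low pool in each treatment, saline pool 4 (ratio 0.85; 353 against 527 to 566) and leptin pool 7 (ratio 0.84; 246 against 485 to 551). None of these probe sets was called, and no pool stood apart for Igfals or Igfbp7 1423584_at.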

How the results depend on the processing

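All 19 alternatives were run. The 2 called members kept their call in 31 of 37 fits, lost it in 6 and reversed in none; Igfals could not be tested under the 75th percentile filter. The members not called kept their side in 381 of 434 fits, were called in 4 and changed sign in 49. No single fit gave a member both a changed sign and a call. Igfbp1 and the brightest Ghr probe set each had a changed sign and a call, but in different fits. Arrays set the limit for dim probe sets, since the Igfals saline mean lies near background. No paired analysis was possible because the pools carry different numbers in the 2 treatments.

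Of all tested probe sets 1561 were called, against 3992 with median centring (10.2% higher, beside 51.1% as reported), 654 with the actin ratio as a covariate, and 884 to 1431 with 1 pool left out. The count of called members was 2, against 1 with median centring, with the 75th percentile filter and with the actin covariate (there Ghr 1417962_s_at, lower), and 1 to 3 with 1 pool left out.

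Sign changes of members, as log2 fold changes, were as follows, and the cause was not tested. With quantile scaling Ghr 1417962_s_at was 0.0088, Igf1r 1428967_at -0.032, and Igfbp4 0.039 (1421992_a_at), 0.023 (1437405_a_at) and 0.074 (1437406_x_at). With cyclic loess scaling the same 5 probe sets were 0.00076, -0.028, 0.035, 0.12 and 0.15. With median centring Ghr 1451871_a_at was -0.062, Igf1 -0.072 (1434413_at) and -0.11 (1437401_at), Igf1r -0.071 (1426565_at), -0.093 (1428967_at) and -0.047 (1452982_at), Igfbp2 -0.085, Igfbp4 -0.24 (1423756_s_at) and -0.21 (1423757_x_at), and Igfbp5 1452114_s_at -0.051. With the actin covariate Ghr 1451871_a_at was -0.014, Igf1 -0.16 (1437401_at) and -0.11 (1452014_a_at), Igfbp1 -0.46, Igfbp3 0.42 (1423062_at) and 0.32 (1458268_s_at), and Igfbp4 -0.35 (1423756_s_at) and -0.45 (1423757_x_at). With 1 pool left out Ghr ranged from -0.24 to 0.0085 (1417962_s_at) and from -0.033 to 0.30 (1451871_a_at), Igfbp3 from -0.17 to 0.086 (1423062_at) and from -0.16 to 0.071 (1458268_s_at), and Igfbp4 from -0.32 to 0.10 (1421991_a_at), -0.22 to 0.12 (1421992_a_at), -0.061 to 0.10 (1423756_s_at), -0.072 to 0.16 (1423757_x_at), -0.13 to 0.062 (1437405_a_at) and -0.096 to 0.087 (1437406_x_at).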

Other observations

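Igfbp1 and Tat, the liver tyrosine aminotransferase, a gene long known to be induced by glucocorticoids, had their lowest pools in common. Tat read 2676, 3359, 2912 and 1666 in saline pools 1 to 4 and 3791, 3662, 1674 and 3179 in leptin pools 5 to 8, and Igfbp1 read 2117, 2261, 1420 and 1083 and then 2911, 3782, 749 and 2638. Both genes were lowest in saline pool 4 and leptin pool 7 of their treatments. The same held for Ghr 1417962_s_at (1762 and 1563) and 1451501_a_at (1317 and 1076). It also held for Igfbp4 1437405_a_at (6597 and 6540), 1437406_x_at (6038 and 6039), 1421992_a_at (1832 and 1410) and 1421991_a_at (353 and 246). Ghr 1451871_a_at shared only saline pool 4, and Igfbp4 1423756_s_at and 1423757_x_at only leptin pool 7. The shared pools are thus not particular to Igfbp1 and Tat. Cish (308) and Socs2 (199) were also lowest of the leptin pools in pool 7, as was the hepatocyte marker sum (171883), but in saline Cish was lowest in pool 2 (171), and Socs2 (127) and the hepatocyte sum (147280) in pool 1. Tat and this set of pools were chosen after their values were seen.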
